A study of Mus musculus with 8 samples.

Results

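The regions described here are m6A peaks annotated to coding sequence whose deposited record holds at least 2 blocks, so that the peak runs from 1 exon into the next across a splice junction. In each of the 4 deposited peak lists, the rows of class CDS with a block count of 2 or more were taken. They numbered 4055 rows in all, of 19124 coding peaks and 35697 peaks of any class. The rule used the class and the block count and neither the fold enrichment nor the genotype, so block numbers are a description.

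The series applied methylated RNA immunoprecipitation and sequencing (MeRIP-seq) to spermatogenic cells from C57BL/6 mice aged 12 weeks, either wild-type animals (WT) or Alkbh5-/- animals (KO). ALKBH5 is a demethylase that takes the methyl group off N6-methyladenosine (m6A). The cell fractions are labelled PA and RO, after the pachytene spermatocytes (meiotic prophase) and the haploid round spermatids that the title of the series gives. Each genotype and cell fraction gave 1 input and 1 immunoprecipitated library, 8 samples in all, from total RNA cut to 100 to 200 nt and pulled down with a polyclonal antibody against m6A. Since every group is 1 library, the differences below have no replicate check and were not tested, and the 95% intervals cover counting error only. The number of animals behind a library is not given in the sources used here. Where 4 values follow each other without names, they stand for WT PA, KO PA, WT RO and KO RO in this order.

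m6A is written on nascent RNA by a complex of METTL3, METTL14 and accessory proteins such as WTAP, VIRMA and ZC3H13, mostly at adenosines within a GGAC-like sequence. The mark is known to be dense in long internal exons and around stop codons and sparse next to splice junctions, where the exon junction complex sits on the spliced RNA. A MeRIP peak is as wide as the fragments that cover the methylated base, so a methylated base near the end of an exon can give a peak that runs into the neighbouring exon. The block structure of a peak gives the exons that the called region covers, and does not place the methylated base.

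No genome was used here, so sequence was read from the RefSeq windows around gene starts (assembly GRCm38.p6, 250 bases before to 50 after each start) wherever a member block lay inside such a window. Of blocks readable for 100 bases or more in the window of another gene, the following 5 are shown because each lies at least 2427 bases inside the RefSeq ends of its own gene. Those of Pawr, Smg6, Bbof1 and Adamts5, within 1348 bases of such an end, are not printed. They are printed 5′ to 3′ on the strand of the peak, with GGAC in capitals. The Ttc6 block (chr12:57575802-57576002, plus strand) is a downstream end block that follows an acceptor edge with AG, and Ttc6 is a tetratricopeptide repeat gene. The Cttnbp2 block (chr6:18435260-18435446, minus strand) is the downstream of 2 blocks in the gene of a cortactin-binding protein. The Nop14 stretch (chr5:34650444-34650620, minus strand) begins at the acceptor side of its exon, and NOP14 is a factor of small ribosomal subunit assembly. The Lzts3 stretch (chr2:130635192-130635464, minus strand) is the first part of a downstream block of 291 bp in a leucine zipper gene. The Nell2 block (chr15:95473509-95473659, minus strand) is an inner block and so a whole exon, with an intron on each side, in the gene of a secreted protein with EGF-like repeats.
Ttc6: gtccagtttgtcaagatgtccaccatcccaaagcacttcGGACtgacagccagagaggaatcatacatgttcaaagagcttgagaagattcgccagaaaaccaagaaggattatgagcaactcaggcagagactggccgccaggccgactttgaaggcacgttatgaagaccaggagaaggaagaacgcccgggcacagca
Cttnbp2: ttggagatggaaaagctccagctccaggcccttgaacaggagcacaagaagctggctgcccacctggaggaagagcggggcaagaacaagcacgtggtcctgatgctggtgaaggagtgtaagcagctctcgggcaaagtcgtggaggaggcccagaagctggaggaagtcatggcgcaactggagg
Nop14: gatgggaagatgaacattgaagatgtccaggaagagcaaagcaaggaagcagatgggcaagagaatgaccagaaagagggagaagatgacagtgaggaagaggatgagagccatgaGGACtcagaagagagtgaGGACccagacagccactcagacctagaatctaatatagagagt
Lzts3: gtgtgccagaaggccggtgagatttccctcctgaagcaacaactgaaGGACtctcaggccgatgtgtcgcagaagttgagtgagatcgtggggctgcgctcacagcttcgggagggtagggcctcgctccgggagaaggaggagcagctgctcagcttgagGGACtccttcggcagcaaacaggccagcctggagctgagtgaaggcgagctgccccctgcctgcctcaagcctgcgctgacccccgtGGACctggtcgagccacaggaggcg
Nell2: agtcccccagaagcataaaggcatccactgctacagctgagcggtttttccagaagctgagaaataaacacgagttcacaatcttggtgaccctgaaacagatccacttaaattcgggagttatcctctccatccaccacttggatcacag

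These blocks held GGAC 1 time in Ttc6, 2 times in Nop14 and 3 times in Lzts3, and not at all in Cttnbp2 or Nell2. The Ttc6 block belonged to a member of KO PA with a fold of 32.3, as did those of Cttnbp2 (24.1) and Lzts3 (12.0). The Nell2 block belonged to a member of WT RO, with a fold of 13.5 and only 18 bp and 11 bp in the exons on its sides. The Nop14 exon belonged to members of WT PA (fold 1.96), KO PA (4.17) and KO RO (2.03). The fold is the authors' value for the immunoprecipitated over the input library, and it depends on the depth of each pair, so folds of different lists are set side by side here without a direction. Over the 97 distinct stretches of at least 12 bases that could be read, 6154 bases in all, GGAC occurred 41 times on the strand of the peak, or 6.66 times per kb. All 32851 windows, read on both strands, held it 3.85 times per kb. Of 15 stretches of 100 bases or more, 7 held GGAC in their first 100 bases (46.7%) and 3 held GGACT (20%), a motif that contains GGAC, against 30.7% and 9.47% of pieces of 100 bases, 1 from the middle of every window, counted on each strand. The stretches are exons near gene starts, where the windows lie. Most of each window and all of each middle piece lie before a start, so they give no exonic background. Whether GGAC is enriched in members was not tested, and a match is no mapped site.

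The block edges were read against the splice signals in the same windows, since they show whether a gap is an intron. Each line below gives 30 bases, 20 of the exon and 10 of the gap, with the first or last 2 bases of the gap in capitals. Smg6 (chr11:74925984-74926013, plus strand) and Rtp3 (chr9:110989435-110989464, minus strand) are donor edges, and Cttnbp2 (chr6:18435427-18435456, minus strand) and Fat1 (chr8:44950186-44950215, plus strand) acceptor edges. Sesn1 (chr10:41887429-41887458, plus strand) and Pias1 (chr9:62980864-62980893, minus strand) are edges on the acceptor side without AG. SMG6 is the endonuclease of nonsense-mediated decay, FAT1 a giant cadherin, SESN1 a stress-induced regulator of mTORC1 and PIAS1 a SUMO ligase. Rtp3 had 1, 0, 57 and 0 input counts while its junction was crossed in the other 3 lists than WT RO, so the gene of that peak is uncertain.
Smg6 donor: tccgcaggccgggagcagagGTgagttgcg
Rtp3 donor: cagcaaaagacctttgctagGTaagggagg
Cttnbp2 acceptor: tatcttccAGttggagatggaaaagctcca
Fat1 acceptor: tctattacAGgtggccaggagttaaaaaat
Sesn1 acceptor side: cgcccccgCCgggtgctgactgaagcgctg
Pias1 acceptor side: cgcttgcgCTgacagacgcaagatggcgga

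Of 31 distinct donor edges that could be read, 30 began with GT, the exception being a GC in Gm8247. Of 22 acceptor edges, 12 ended with AG. Some edges lay in a window of another gene than the peak's, at times beside a window of its own gene. Among them, GT stood at 16 of 16 donor edges and AG at 8 of 9 acceptor edges, Cep85l being the exception with TA. Where only windows of the peak's own gene held the edge, AG stood at 4 of 13 acceptor edges. Of the other 9 edges, 6 lay within 5 bases of a RefSeq start on the same strand. Sesn1 and Pias1, both crossed in all 4 lists, were among these 6. Windows around starts over-represent such places, so these shares cannot be taken for all members.

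The input libraries held between 9921365 counts (KO PA) and 13147239 counts (WT PA) over 53465 genes. The cell labels were set against marker genes that have a symbol in the peak lists, in TMM-scaled CPM, which are read counts of the gene corrected for the depth of its library. The summed level of 4 of 10 pachytene markers was 2644 in WT PA against 1416 in KO PA, and 2345 in WT RO against 1608 in KO RO, so the fractions differed less than the genotypes did. Most of that sum was Sycp2, while Sycp1 alone was 360, 339, 364 and 434. The sum of 9 of 12 round spermatid markers was 219, 584, 432 and 1071 in the same order, higher in RO within each genotype and higher in KO within each fraction. Single markers differed, since Prm2 had 80.7, 190, 106 and 340 and Acrv1, lower in KO in both fractions, 54.7, 51.3, 136 and 77.6. Sertoli cell markers (4 of 7) summed to between 172 and 318, muscle and endothelium markers (4 of 6) to between 227 and 432, and spermatogonial markers (4 of 7) to between 24.0 and 63.9. Leydig cell markers (2 of 6) summed to 136 in WT PA and to between 16.7 and 41.5 in the other libraries, and the macrophage marker Csf1r lay between 2.13 and 21.6. No marker with a symbol was at 0 in any library. Their part in the differences below was not tested, and fewer cells of a type cannot be told apart from less RNA per cell. Each list was assigned to its library by name alone. Genes with a member in 1 list only were highest in the library of that name for WT PA (108 genes), while for the KO PA, WT RO and KO RO lists the median was also highest in WT PA, so input levels did not check those names. Alkbh5 itself was not analysed here.

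Coding peaks that cross a junction were more frequent in KO than in WT in both fractions. WT PA held 727 of them, 17.2% of its 4233 coding peaks (16.1% to 18.3%, Wilson interval), and KO PA 1542 of 5480 (28.1%, 27.0% to 29.3%). WT RO held 786 of 4687 (16.8%, 15.7% to 17.9%) and KO RO 1000 of 4724 (21.2%, 20.03% to 22.36%). The KO PA list stood above the other 3, and the WT lists were close to each other. The number in KO over WT in PA was 2.12 (1.94 to 2.32) and in RO 1.27 (1.16 to 1.40), while that of coding peaks of 1 block stood at 1.12 for PA (1.07 to 1.18) and at 0.955 for RO (0.913 to 0.999). The share was higher in KO by 10.96 percentage points in PA (9.31 to 12.6) and by 4.40 in RO (2.82 to 5.98). A false discovery rate of 0.05 or more in the deposited lists was held by 3.44% of the members of WT PA and 7.76% of those of WT RO, against 0.973% for KO PA and 1.2% for KO RO. The depth of the immunoprecipitated libraries, on which the number of peaks called depends, was not analysed here. Between fractions, RO minus PA was -0.405 points in WT (-1.97 to 1.15) and -6.97 points in KO (-8.63 to -5.30).

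The KO peaks were also longer, so the share was taken again within classes of exonic length. Among coding peaks of 200 bp or less, 14.3% crossed a junction in WT PA against 22.03% in KO PA, and 14.6% in WT RO against 15.8% in KO RO. Among those over 600 bp, the shares were 25%, 38.6%, 23.6% and 30.3%. The KO share was above the WT share in each of the 5 length classes of both fractions. With the shares weighted to the lengths of all coding peaks together, they were 17.4%, 27.4%, 17.0% and 21.1%, and KO minus WT was 10 points in PA and 4.03 in RO.

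**Figure D1:**
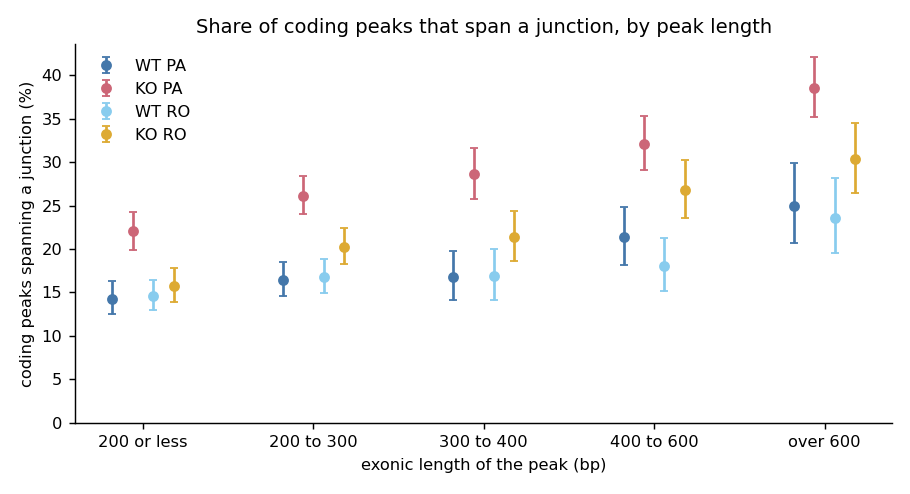
Share of coding peaks that cross a junction (vertical axis, percent, with Wilson 95% intervals) by exonic length of the peak (horizontal axis, bp, upper limit of each class included) in the 4 lists. The KO PA points lie highest in all 5 classes, from 22.03% to 38.6%, and the WT points of both fractions lie close together.

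At the same places, KO peaks crossed a junction alone more often than WT peaks did. Coding peaks of both genotypes that were each other's best overlap formed 3170 pairs in PA and 2746 in RO. In PA both peaks crossed a junction in 490 pairs, the WT peak alone in 59 and the KO peak alone in 338. In RO the numbers were 309, 125 and 207. Where KO alone crossed, the KO peak had a median of 570 bp and its WT partner 301 bp in PA, and 508 bp and 271 bp in RO. Where WT alone crossed, the WT peak was the longer, with medians of 361 bp against 271 bp in PA and 419 bp against 301 bp in RO. Of the pairs in PA, the KO peak was longer in 2210 and shorter in 695, and of those in RO it was longer in 1424 and shorter in 1106.

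Most members covered a pair of exons. Peaks of 2 blocks made up 79.9% of the members in WT PA against 71.4% in KO PA, and 84.5% in WT RO against 79.4% in KO RO. Peaks of 4 or more blocks numbered 29, 135, 18 and 42 in these lists. The median exonic length was 271 bp in WT PA against 328.5 bp in KO PA, and 270 bp in WT RO against 301 bp in KO RO, against 241, 270, 240 and 270 bp for coding peaks of 1 block. The median genomic span lay between 2255 bp (WT RO) and 2798 bp (KO PA), so that most of the span was intron. Exonic lengths lay within 1 bp of a multiple of 30 in 87.8% to 89.7% of the members of a list, a step that coding peaks of 1 block share (89.6% to 93.4%). The reach of a peak is therefore known to about 30 bp.

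The peaks lay unevenly on their exons. In 2-block members the longer block held a median of 83.9% to 86.0% of the exonic bases of a peak. The longer block was the downstream, 3′ block in 426 of 580 such peaks of WT PA (73.4%, 69.7% to 76.9%), 747 of 1100 of KO PA (67.9%, 65.1% to 70.6%), 491 of 664 of WT RO (73.9%, 70.5% to 77.1%) and 544 of 792 of KO RO (68.7%, 65.4% to 71.8%). In all 4 lists the peak thus mostly sat in the exon after the junction and reached back into the exon before it. In 173, 324, 221 and 257 members of WT PA, KO PA, WT RO and KO RO, no more than 1 block reached 25 bp. Inner blocks, which the peak covers from edge to edge, had a median length of 97 to 111 bp, and 37.2% (KO RO) to 41.8% (WT RO) of them had a length divisible by 3.

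The rule's own limit is a second block of 1 bp. Members with an end block of 1 bp numbered 12, 26, 13 and 23, with a median fold of 7.74, 13.3, 8.07 and 8.54. Coding peaks of 1 block that ended exactly at a crossed intron numbered 3, 5, 1 and 5, with a median fold of 18.1, 45.5, 84.1 and 60. Gaps under 30 bp, too short for an intron, occurred 3, 6, 5 and 2 times, at 9 distinct places.

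Within each list, members had lower folds than coding peaks of 1 block. The median fold was 9.34 against 12.6 in WT PA, 12.0 against 13.9 in KO PA, 14.8 against 16.1 in WT RO and 11.6 against 12.8 in KO RO. The fold rose with length in both kinds of peak, and members are longer; among short peaks the gap was wider than over all lengths. At 200 bp or less the medians were 4.29 against 7.91 in WT PA, 4.65 against 8.27 in KO PA, 6.73 against 9.42 in WT RO and 4.51 against 6.99 in KO RO. Members were lower in 18 of the 20 combinations of list and length class, the exceptions being peaks over 600 bp in WT PA (32.0 against 31.9) and KO RO (34.6 against 33.1). Among members over 200 and up to 300 bp, those with at least 80% of their bases in 1 block had medians of 9.84, 11.5, 20.6 and 10.5 in WT PA, KO PA, WT RO and KO RO. Those with under 60% in the longest block had 5.75, 6.58, 9.06 and 5.97. For members of up to 200 bp these medians lay closer together, at 5.09, 5.17, 7.62 and 4.95 against 4.41, 4.01, 6.73 and 4.005.

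**Figure D2:**
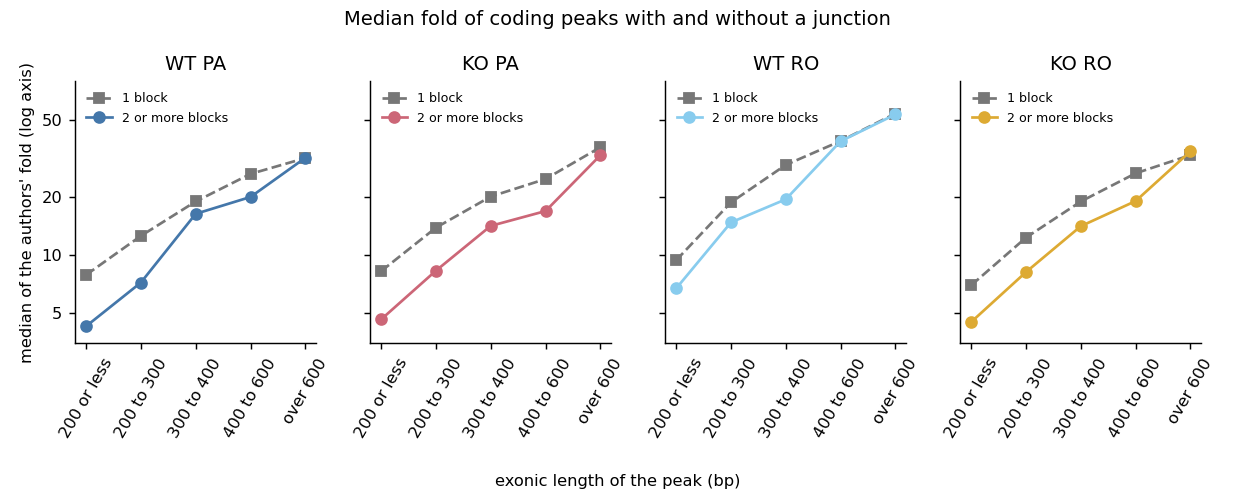
Median of the authors' fold (vertical axis, log scale) by exonic length of the peak (horizontal axis, bp, upper limit of each class included) for coding peaks of 1 block (grey squares) and of 2 or more blocks (coloured circles), 1 panel for each list. The circles lie below the squares in all classes but the longest of WT PA and KO RO, and at 200 bp or less they lie at 4.29 to 6.73.

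Most exonic bases of the members with the highest folds lay in 1 block. In WT PA these were Togaram1, the gene of a ciliary microtubule-binding protein, with a fold of 408 and blocks of 696, 30 and 55 bp, Sirt1, an NAD-dependent deacetylase, with 297 and blocks of 47 and 433 bp, and Phax, an export adaptor of small nuclear RNA, with 251 and blocks of 412 and 34 bp. In KO PA they were Cep97, a centriolar regulator of cilium formation (fold 314, blocks of 680, 76 and 593 bp), Rsf1, a chromatin remodelling subunit (226, blocks of 22 and 698 bp), and Ccdc157 (214, blocks of 54 and 605 bp). In WT RO they were Tiparp, a mono-ADP-ribosyltransferase (822, blocks of 14 and 912 bp), Slc25a46, of the mitochondrial outer membrane (474, blocks of 51 and 399 bp), and Rnf19a, a ubiquitin ligase (426, blocks of 116 and 604 bp). In KO RO they were Elk4, an ETS transcription factor (313, blocks of 309 and 21 bp), Syt11, a synaptotagmin (305, blocks of 28 and 571 bp), and Camsap2, which binds microtubule minus ends (250, blocks of 775, 137 and 17 bp). Of these 12 peaks, Cep97 was the exception, with long blocks on both ends.

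The members with the most blocks reached 8. The Ttn peak of KO PA (chr2:76851595-76854457, minus strand) crossed 7 introns of the titin gene within 2863 bp, with blocks of 71, 69, 78, 84, 84, 84, 81 and 170 bp from 5′ to 3′ and a fold of 36.1. The peak of 4933409G03Rik in WT PA also had 8 blocks, none longer than 52 bp, at a fold of 2.25. Where block numbers tied, the peak with the most exonic bases is named. Ccar1, a coactivator of transcription and splicing, carried 1 of 2 peaks of 6 blocks in WT PA (fold 7.15) and the only such peak of KO RO (9.98), whose 4 inner blocks of 256, 192, 240 and 112 bp were the same in both lists. Slf2, a factor that brings the SMC5/6 complex to damaged DNA, carried 1 of 4 peaks of 7 blocks in KO PA, with inner blocks of 734 and 968 bp and a fold of 31.1. In WT RO the only peak of 5 blocks lay in Micalcl (fold 91.5), and Rif1 carried 1 of 17 peaks of 4 blocks (14.5). In KO RO Iws1 carried 1 of 8 peaks of 5 blocks (19.6).

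The longest spans came from single long introns, most of them with a short block on 1 side. The Hs3st4 peak, in the gene of a heparan sulfate sulfotransferase, spanned 413588 bp in KO PA (chr7:123983882-124397469, plus strand) with an upstream block of 12 bp and a downstream block of 644 bp, at a fold of 58.7. In KO RO the same intron was crossed with an upstream block of 42 bp, again with 644 bp downstream, at a fold of 41.4. Naaladl2 spanned 231731 bp in both KO lists, with blocks of 42 and 288 bp and folds of 13.5 in PA and 16.9 in RO. In WT PA the longest were Tshz2 (249957 bp, blocks of 19 and 192 bp, fold 8.43) and Intu (112877 bp, blocks of 23 and 158 bp, 4.64). In WT RO they were Igf1r (144715 bp, blocks of 462 and 19 bp, 36.3) and Tmtc2 (122163 bp, blocks of 107 and 134 bp, 24.2).

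In 7 of the 8 directions between lists of the same fraction or genotype, members were found again less often than coding peaks of 1 block. Of the WT PA members, 82.5% (79.6% to 85.1%) overlapped a KO PA peak by at least 1 bp of exon on the same strand, against 79.7% of all WT PA peaks and 85.8% of its coding peaks of 1 block. Of the KO PA members, 56.9% overlapped a WT PA peak, against 56.6% of all KO PA peaks and 62.5% of its coding peaks of 1 block. In RO, 60.8% of the WT members overlapped a KO peak, against 55.9% of all WT RO peaks and 66.0% of those of 1 block. Of the KO RO members 56.7% overlapped a WT RO peak, against 58.9% of all and 65.6% of 1 block. Between fractions, 58.6% of WT PA members were in WT RO (all peaks 64.1%, coding peaks of 1 block 70.3%) and 57.8% of WT RO members in WT PA (50.6% and 60.6%). Of KO PA members 67.4% were in KO RO (70% and 73.1%), and of KO RO members 88.9% in KO PA (81.1% and 85.8%), the exception among the 8. The gap was wider among short peaks. At 200 bp or less members were below coding peaks of 1 block in 8 of 8 directions, with 12.99% against 30.9% for KO PA in WT PA and 19.7% against 42.9% for WT RO in KO RO. Over 600 bp they were below in 4 of 8.

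The partner was less often itself a junction peak. Of the 600 WT PA members with a KO PA peak, the best partner crossed a junction in coding sequence for 86.2% and was a coding peak of 1 block for 10.5%. Of the 877 KO PA members with a WT PA peak, it crossed a junction for 56.7% and was a coding peak of 1 block for 38.9%. An identical intron was crossed in the other list by 70.0% of the WT PA members, 32.9% of the KO PA members, 40.1% of the WT RO members and 31.4% of the KO RO members, each against the other genotype.

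By intron, the 4 lists crossed 3162 distinct gaps, of which 1886 (59.6%) were crossed in 1 list, 660 in 2, 414 in 3 and 202 in all 4. KO PA alone crossed 1029, WT RO alone 425, KO RO alone 243 and WT PA alone 189. Both KO lists shared 914 gaps and both WT lists 302. At 166 gaps of 131 genes both KO lists had a member and no peak of any class of either WT list overlapped. The reverse, both WT lists and no KO peak, held at 17 gaps of 14 genes. Both PA lists without an RO peak gave 53 gaps, both RO lists without a PA peak 13, KO PA with WT RO 18 and WT PA with KO RO 7. The KO pair thus stood above each of the other 5 pairings of lists, and it holds the list with the most members. The 166 gaps were part of the 914 shared by both KO lists, and the 17 part of the 302 shared by both WT lists. The same count was not made over all peaks, so these numbers cannot be read as a trait of junction peaks.

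**Figure D3:**
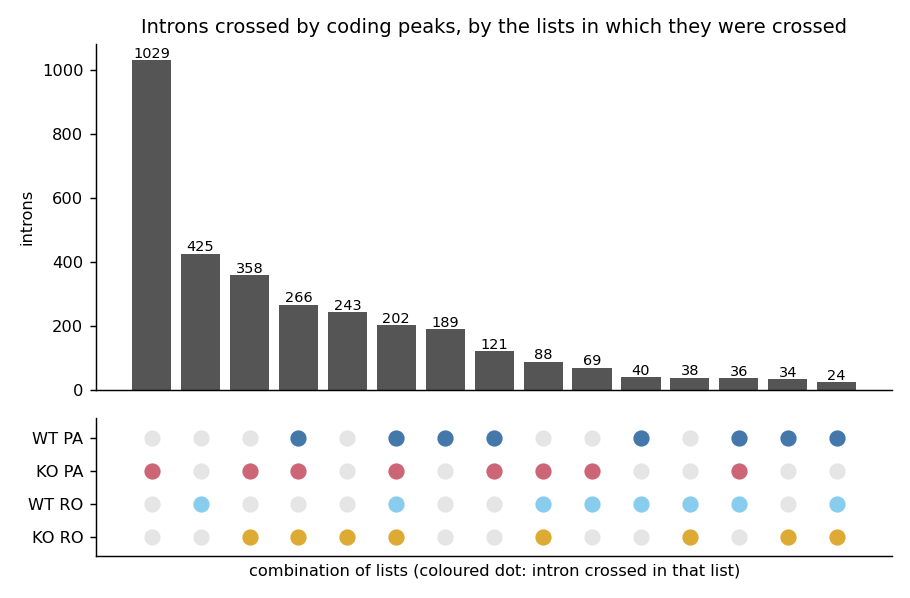
Number of distinct gaps between blocks of coding peaks (bars) for each combination of lists in which the gap was crossed (coloured dots under the bar). The bar of KO PA alone, 1029, is the highest, and 202 gaps were crossed in all 4 lists.

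At the 202 gaps crossed in all 4 lists, in 172 genes, the blocks beside the gap had the same lengths in all 4 lists at 3 gaps only. The peak had a median exonic length of 390.5 bp in WT PA against 505.5 bp in KO PA, and 359.5 bp in WT RO against 451 bp in KO RO. It was strictly longest in KO PA at 80 gaps, in KO RO at 37, in WT RO at 33 and in WT PA at 16. The 5 genes whose lowest fold over the lists was highest show how the reach varied. Syt11 (intron of 9741 bp at chr3:88762550-88772290, minus strand) had 28 bp upstream in WT PA, KO PA and KO RO and 58 bp in WT RO, and downstream 391, 511, 571 and 571 bp in WT PA, KO PA, WT RO and KO RO. Its folds were 118, 105, 145 and 305.

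Spen encodes a large RNA-binding repressor that acts with Xist, and its peak crossed an intron of 15771 bp (chr4:141522393-141538163, minus strand) into a whole exon of 590 bp in all 4 lists. The upstream block was 44 bp in WT PA, KO PA and KO RO and 104 bp in WT RO, at folds of 88.8, 101, 147 and 169 in the order of the lists. Tiparp had 14 bp upstream of a 2591 bp intron (chr3:65528633-65531223, plus strand) in each list and 912, 942, 912 and 961 bp downstream, at folds of 81.0, 183, 822 and 57.2. Zbtb10, a zinc finger gene, had 94, 94, 94 and 124 bp upstream of a 270 bp intron (chr3:9280464-9280733, plus strand) and 475, 445, 535 and 445 bp downstream, at folds of 51.6, 66.2, 67.3 and 54.0. The fifth gap, of 2145 bp (chr2:120746290-120748434, minus strand), was listed under 2 gene names, Cdan1 and Ttbk2, so the gene of that peak is uncertain. In all 5, the downstream block was the longer in all 4 lists.

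Smg6, whose donor sequence is printed above, was crossed in all 4 lists at a 2989 bp intron. Its upstream block had 1 bp in WT PA against 121 bp in KO PA, and 151 bp in WT RO against 31 bp in KO RO, and its downstream block 689, 659, 569 and 599 bp. The folds were 8.45, 6.62, 14.1 and 6.55, and the input level was 495, 519, 637 and 564 CPM.

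**Figure D4:**
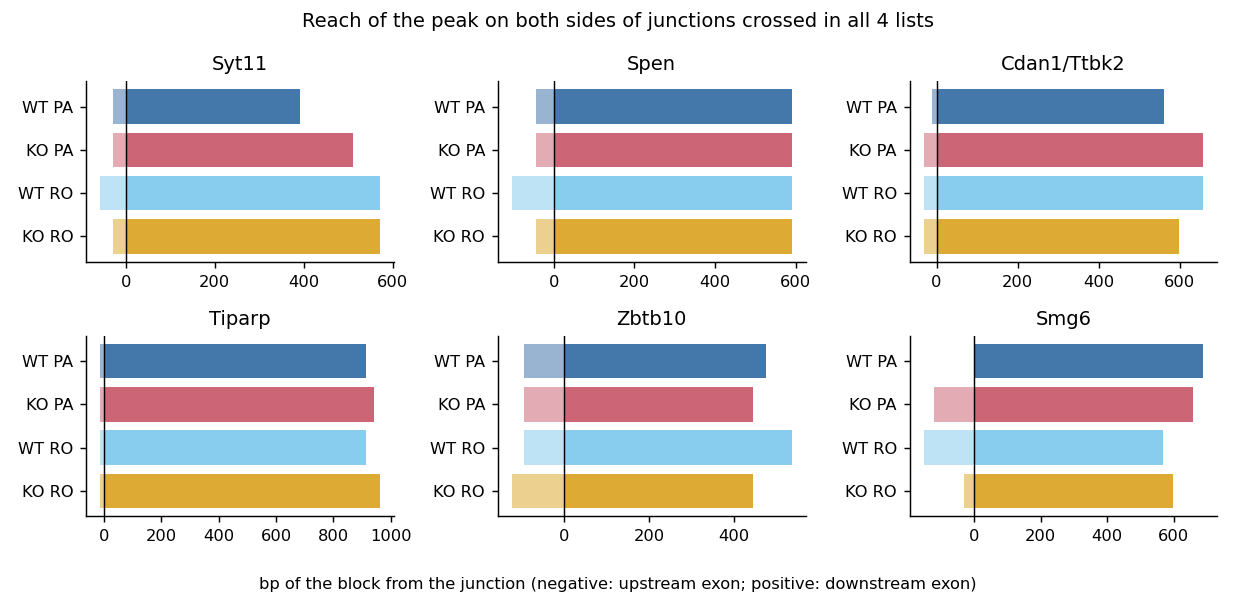
Length of the block on each side of a junction crossed in all 4 lists (horizontal axis, bp, upstream exon to the left of 0 and downstream exon to the right) for 6 genes and 4 lists (bars); blocks beyond the neighbouring exon are not drawn. The downstream block is the longer in all 24 bars, and the upstream block of Smg6 is 1 bp in WT PA and 151 bp in WT RO.

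The named gaps limited to 1 genotype or fraction were picked for their fold, and all lay below the 3 highest folds of their lists. The upper quartiles of the fold of all members were 22.6, 25.9, 37.6 and 24.5 in the order of the lists. Atp6v1e2, a testis-type subunit of the vacuolar proton pump, was crossed at chr17:86945070-86947843 in KO PA (fold 46.6, blocks of 44 and 282 bp) and KO RO (32.2, 44 and 223 bp) with no overlapping WT peak. Its input level was 3.24 CPM in WT PA against 7.58 in KO PA, and 5.82 in WT RO against 16.4 in KO RO, so the input was higher in KO as well. Dxo, the gene of a decapping exoribonuclease, followed with folds of 29.5 and 34.4, but its gap had 6 bp and is too short for an intron. On the WT side, Lig4, the DNA ligase of end joining, was crossed at chr8:9973808-9976030 in WT PA (38.5) and WT RO (44.4), with input of 18.5, 12.8, 29.4 and 12.1 CPM in the order of the lists. Glyctk, glycerate kinase, was crossed at chr9:106156108-106156408 in WT PA (26.7) and WT RO (40.4), with 15.2, 8.04, 35.2 and 8.31 CPM. For both WT genes the input was lower in KO too.

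By fraction, Lactb, a mitochondrial serine protease, was crossed at chr9:66970937-66971175 in WT PA (fold 37.9) and KO PA (59.4), with input of 6.14, 3.70, 6.43 and 5.93 CPM in the order of the lists. Elk4 was crossed at 1 gap in WT PA (27.4) and KO PA (35.0) without an RO peak there, while another of its junctions carried the highest fold of KO RO. In RO, Polr3gl, an RNA polymerase III subunit, had folds of 10.3 in WT and 11.4 in KO, and Col6a5, a collagen, 18.8 and 9.90. The input of Polr3gl was 24.7, 8.69, 35.3 and 7.21 CPM, so it did not separate the fractions. That of Col6a5 was 18.84, 8.505, 30.92 and 15.25 CPM, higher in RO within each genotype, as its peaks were. That of Elk4 was 25.74, 35.78, 15.2 and 32.68 CPM, higher in PA within each genotype.

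Members lay in 1819 genes, 660 in WT PA against 1264 in KO PA, and 703 in WT RO against 871 in KO RO, with 213 genes in all 4 lists and 888 in 1. Of these genes, 36.2%, 35.4%, 37.8% and 38% (in the order of the lists) also held a coding peak of 1 block. A peak in the 3′ UTR was held by 12.7%, 18.8%, 20.9% and 17.7% of them, close to the 13.8%, 17.3%, 19.2% and 16.6% of genes with coding peaks of 1 block. Genes with the most members over the 4 lists were Baz2b, a bromodomain gene, with 13 (2 in WT PA against 5 in KO PA, and 2 in WT RO against 4 in KO RO), Cep290, of the ciliary transition zone, with 12 (1, 6, 2 and 3), and, with 11 each, the centrosomal gene Cep350 (0, 5, 2 and 4) and the chromatin regulator Kmt2e (3, 3, 1 and 4). Their input levels lay between 234 CPM (Kmt2e in WT RO) and 604 CPM (Cep290 in WT RO), where the median of all genes at 1 CPM or more was at most 11.3.

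Many genes of chromatin modifiers carried a member. Of 47 such genes with a peak in any list, 37 had a member (78.7%), against 1818 of all 8721 symbols with a peak (20.8%). Among genes with a coding peak, the share was 86.0% for chromatin modifiers, 88.9% for the m6A list and 87.5% for the cohesin, condensin and spindle list, against 41.2% of all 4412. Chromatin modifier genes with a member numbered 16 in WT PA against 33 in KO PA, and 16 in WT RO against 24 in KO RO. Of the 47 with a peak these were 34.0%, 70.2%, 34.0% and 51.1%. Of all 8721 symbols with a peak, 7.56% had a member in WT PA against 14.5% in KO PA, and 8.05% in WT RO against 9.98% in KO RO. The share thus rose from WT to KO over all genes as well. Ash1l, a histone H3 lysine 36 methyltransferase, had folds of 169 in WT PA, 94.4 in KO PA and 136 in KO RO, at an intron whose downstream block was 9 bp in WT PA, 1058 bp in KO PA and 1028 bp in KO RO. Arid2, a subunit of the PBAF remodeller, was crossed in all 4 lists, with downstream blocks of 321, 741, 831 and 561 bp and folds of 35.6, 19.7, 145 and 22.7. Brdt, picked after its values were seen and known as the testis bromodomain protein that compacts chromatin in spermatids, had 2 members in every list, with highest folds of 18.1, 22.8, 34.2 and 12.6. The lists were not matched to other genes for length or level.

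The lists of cell division, cilium and germ cell genes gave smaller counts. Of cohesin, condensin and spindle checkpoint genes, 14 of 20 with a peak had a member (70%), among them Plk4, the kinase of centriole duplication, in all 4 lists with downstream blocks of 418, 897, 867 and 837 bp. The kinetochore motor gene Cenpe had highest folds of 3.66, 65.8, 64.6 and 22.8, and its WT PA and WT RO peaks did not overlap. Of cilium and axoneme genes 16 of 24 had a member (66.7%), led by Togaram1 and Wdr60, whose highest fold was 193 in KO PA. Of genes of meiotic recombination and repair 10 of 17 had one, with Prdm9, which places recombination hotspots, in KO RO alone (243). Rad50 had a fold of 6.32 in WT PA. Its folds of 118 in KO PA and 6.07 in KO RO came from another place in the gene, without overlap with the WT PA peak. Of meiotic axis genes 5 of 9 had one, with folds of at most 5.31 except for Trip13 (14.8 in WT PA). Of 10 piRNA genes 3 had one, of which Exd1 was crossed in all 4 lists with blocks of 27 and 423 bp in 3 of them and 57 and 453 bp in KO PA, at folds of 10.4, 113, 15.2 and 43.1. Of 14 acrosome, condensation and sperm tail genes 3 had one (21.4%), namely Fsip2, Spata16 and Prm2. Ubiquitin ligase and deubiquitinase genes gave 16 of 33 (48.5%), and Fbxw7, a substrate receptor of SCF ligases, was crossed in all 4 lists at folds of 30, 186, 6.58 and 72.2.

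Genes that act on m6A or at exon junctions were members as well. Of 13 m6A writer, eraser and reader genes with a peak 8 had a member (61.5%). Zc3h13, a writer subunit, had 1 member in WT PA against 5 in KO PA, and none in WT RO against 3 in KO RO. Its highest folds were 20.6, 152 and 20.5, and that peak of KO RO did not overlap those of WT PA and KO PA. The input of Zc3h13 was 324 CPM in WT PA against 573 in KO PA, and 270 in WT RO against 687 in KO RO. Rbm15b, which recruits the writer and like Ythdf3 was picked after its values were seen, was crossed in all 4 lists at folds of 88.9, 123, 32.3 and 66.1. The reader Ythdf2 was crossed in KO PA only (152), while Ythdf3 was crossed in all 4 (52.2, 4.38, 122 and 27.3). Of 12 genes of the exon junction complex and nonsense-mediated decay 7 had a member (58.3%). Casc3, a core exon junction protein, had blocks of 572 and 26 bp in WT PA and KO RO, 602 and 56 bp in KO PA and 632 and 56 bp in WT RO, with folds of 23.7, 22.3, 47.1 and 14.7. Upf2, a decay factor, had highest folds of 5.62, 43.2, 347 and 5.01, from peaks of 2, 4, 3 and 2 blocks.

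Members lay in genes with a high input level. Their median was 101 CPM in WT PA against 89.5 in KO PA, and 79.0 in WT RO against 89.8 in KO RO, against 40.8, 33.8, 37.0 and 35.2 for genes with coding peaks of 1 block only and 10.4 to 11.3 for all genes at 1 CPM or more. Of genes at 100 CPM or more, 14.5% (13.1% to 16.0%) had a member in WT PA against 29.6% (27.6% to 31.6%) in KO PA, and 12.7% (11.4% to 14.2%) in WT RO against 20.7% (18.9% to 22.5%) in KO RO. Of genes at 1 to 3 CPM, 0.147% to 0.259% had one. The KO share was the higher in each class from 3 CPM in PA and in each class from 30 CPM in RO, and in RO the shares at 10 to 30 CPM were 2.09% in WT and 2.01% in KO.

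**Figure D5:**
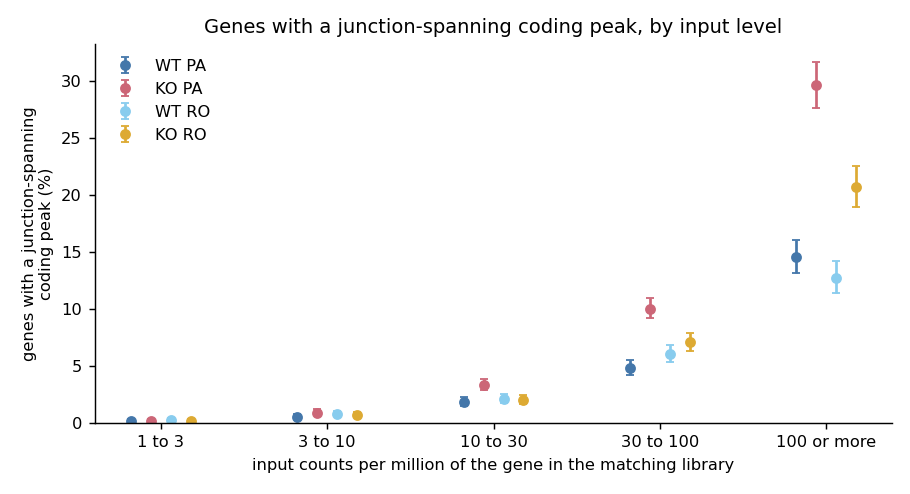
Share of genes with a junction-spanning coding peak (vertical axis, percent, with Wilson 95% intervals) by the input level of the gene in the matching library (horizontal axis, CPM) in the 4 lists. The shares rise with the input level in every list and reach 29.6% in KO PA and 20.7% in KO RO, against 14.5% and 12.7% in WT.

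Genes with a member lay below all genes in their median ratio of KO over WT input. Genes with a member in either PA list had a median log2 ratio of KO over WT input of -0.13, against 0.04 for all genes at 1 CPM or more in either library, and in RO it was -0.07 against 0.04. With scaling by library totals the sign turned for members, to 0.16 in PA and 0.11 in RO, while the medians of all genes moved to 0.35 and 0.22, so members were the lower under both scalings. Among genes at 10 CPM or more, the median of members minus that of all genes was -0.10 in PA and -0.01 in RO, against -0.17 and -0.11 at 1 CPM or more. At a log2 ratio of at least 1, 75 of 1401 member genes were higher in KO PA (5.35%), where 23.8% of all genes were, and 138 were lower (9.85%), where 19.9% of all genes were. In RO 101 of 1221 were higher (8.27%) and 113 lower (9.25%), against 23% and 19% of all genes. Member genes had the higher input levels, as given above, and these shares were not matched for level. Genes with a member in KO PA only had a median of -0.09, and those with a member in WT PA only -0.31. In genes whose input differed by less than 0.5 on the log2 scale, the members numbered 422 in WT PA and 906 in KO PA (2.15-fold) and 452 in WT RO and 586 in KO RO (1.30-fold). In genes at least 2-fold lower in KO they numbered 72 and 137 in PA (1.90-fold) and 73 and 70 in RO (0.959-fold). In genes at least 2-fold higher in KO they numbered 28 and 66 in PA (2.36-fold) and 47 and 74 in RO (1.57-fold). In these genes the share of coding peaks that crossed a junction was higher in KO by 2.65 points in PA (-2.86 to 7.57) and 3.38 in RO (-1.38 to 7.99). In genes that differed by less than 0.5 it was higher by 12.4 points in PA (10.2 to 14.6) and 4.61 in RO (2.42 to 6.79). In genes at least 2-fold lower in KO it was higher by 12.3 points in PA (6.1 to 18.3) and 4.52 in RO (-0.69 to 9.89).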

How the data were processed

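MeRIP-seq was analysed from 4 deposited peak lists and 1 deposited table of input read counts per gene. Per the labels' protocols, RNA was extracted with TRIzol, cut to 100 to 200 nt and immunoprecipitated with an antibody against m6A. Per the submitters' processing notes, cutadapt 2.5, HISAT2 2.1.0 and HOMER 4.10.4 were used with the mm10 build. The peak caller is not given in the sources used here. Per the file headers, the deposited lists give each peak a class, blocks, a fold (a linear ratio), a p-value and a log10 false discovery rate, all computed by the authors. The deposited counts are whole numbers, 9921365 to 13147239 per input library, with no normalization.

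Block starts were taken as counted from 0, which the splice signals bore out, and coordinates are printed from 1. Peaks were compared over exon blocks on the same strand, with at least 1 bp shared (bedtools 2.31.1, Python 3.11.15, pandas 2.3.3, numpy 2.4.6). Shares have Wilson intervals, differences of shares Newcombe intervals and ratios of numbers exact binomial intervals, at 95% (scipy 1.17.1, statsmodels 0.14.6). Intervals treat peaks as independent. Counts were scaled by TMM in edgeR 4.0.16 (R 4.3.3), with a prior count of 2 for log2 ratios and genes kept at 1 CPM or more in either library. This step was tested on simulated data with counting error only, where 200 of 200 changed genes were recovered. The changes were larger than 2-fold and set in genes of high count, so smaller changes and genes of low count were not covered. Overlapping RefSeq windows held the same bases in 3711 of 3711 cases. Figures were drawn with matplotlib 3.10.9.

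The members, gene lists and rules were chosen with earlier results of these data known. Named are, per list, the 3 members of highest fold, the 2 with most blocks and the 2 with the longest span, at a false discovery rate under 0.05. Named as well are the 5 introns crossed in all 4 lists with the highest lowest fold, the 2 best limited to each genotype or fraction, the 3 genes with most members (4 with a tie), and the 2 genes of highest fold from each gene list. Genes with printed sequence were chosen because a window covered their block. Alternatives for the filters, the overlap rule, the length class, the scaling and the count filter are in the closing section.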

Additional observations from a re-analysis of the deposited data

How the results depend on the processing

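No paired analysis was possible because each group has 1 library and no replicate could be left out. Of 118 alternative values, 64 moved by less than their counting interval or 1.5 times, 50 moved further and 4 changed sign or direction; where a value moved, the cause was not tested. Limiting the lists to a fold of at least 5 gave shares of 14.4% in WT PA, 25.6% in KO PA and 19.4% in KO RO, and KO over WT numbers of 2.39 in PA and 1.15 in RO. Asking for at least 25 bp in at least 2 blocks gave shares of 13.1% in WT PA against 22.2% in KO PA, and 12.1% in WT RO against 15.7% in KO RO, and a KO minus WT difference of 9.14 points in PA. The KO share stayed above the WT share under both. Sharing was lower under each stricter rule, given here for reciprocal overlap of at least 50%, for a partner that is itself a member, and for an identical intron. WT PA members in KO PA came to 68.4%, 71.5% and 70.0%, and KO PA members in WT PA to 43.5%, 33.5% and 32.9%. WT RO members in KO RO came to 47.7%, 41.5% and 40.1%, and KO RO members in WT RO to 41.3%, 32.5% and 31.4%. WT PA members in WT RO came to 45.0%, 37.0% and 36.5%, and WT RO members in WT PA to 45.9%, 34.5% and 33.8%. KO PA members in KO RO came to 57.2%, 49.0% and 48.6%, and KO RO members in KO PA to 76.9%, 75.6% and 74.9%. With a false discovery rate under 0.05 on both sides, WT RO members in KO RO rose to 65.4% and in WT PA to 61.5%. The median fold of members over that of coding peaks of 1 block was 0.741 in WT PA against 0.863 in KO PA, and 0.919 in WT RO against 0.906 in KO RO. Over the 5 length classes, shortest first, it was 0.542, 0.573, 0.863, 0.760 and 1.003 in WT PA. It was 0.562, 0.599, 0.705, 0.682 and 0.909 in KO PA. In WT RO it was 0.714, 0.787, 0.663, 0.997 and 0.989, so that members over 400 bp had nearly the fold of the others. It was 0.645, 0.663, 0.745, 0.718 and 1.047 in KO RO. The direction turned over 600 bp in WT PA and KO RO. Scaling the input by library totals turned the median log2 ratio of member genes to 0.16 in PA and 0.11 in RO, while all genes moved to 0.35 and 0.22. At 10 CPM or more, member genes minus all genes came to -0.10 in PA and -0.01 in RO. In all, 4 alternatives were chosen after seeing the data: the standardisation for length, the 30 bp limit on gaps, and the splits by input ratio and by input level. Depth limits the genes under 1 CPM, for which no ratio was given, and the depth behind each peak is unknown.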
